A study of Homo sapiens with 12 samples.

Results

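The genes described here encode the proteins of the cytosolic ribosome. They are the rows of the count table named RPL or RPS with a number and at most an A or X, together with RPSA, RPLP0, RPLP1 and RPLP2, kept at a mean of at least 10 counts over all libraries. This gave 77 of the 58735 rows, 46 of the large and 31 of the small subunit. The least abundant, RPS10, had a mean of 51.2 counts, so the threshold removed none, and all 77 passed the filter of the test. The libraries come from CAL-27 and SCC-15, established cell lines of oral squamous cell carcinoma. There were 4 groups of 3 libraries: CAL-27 with a short hairpin RNA against TTK (shTTK), CAL-27 with a control hairpin (shControl), SCC-15 shTTK and SCC-15 shControl. The labels also call the shControl cells WT and untreated, give all libraries batch 1, and do not say whether libraries are separate cultures, clones or infections, so the p-values measure the spread between these libraries, which may be technical. TTK is a mitotic kinase of the spindle checkpoint, and the series' title names mTORC1 and NF-κB.

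A ribosome joins a small subunit, which decodes the mRNA, to a large subunit, which forms the peptide bond. Each subunit needs one copy of nearly every protein, and cells make these proteins in matched amounts. Most ribosomal protein mRNAs begin with a C followed by an unbroken run of pyrimidines, the 5′ terminal oligopyrimidine (TOP) tract, through which the kinase complex mTORC1 and the RNA-binding protein LARP1 control their translation and stability. The data here are mRNA amounts from poly(A)-selected RNA and hold no measure of translation.

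The first transcribed bases are shown for 10 of the members described below, because the TOP tract lies there. They were chosen after their values were seen, to show starts with and without such a run. Sequences are RefSeq's for GRCh38.p14, from 15 bases before to 15 bases from the annotated start, 5′ to 3′ on the gene's strand, and capitals mark the pyrimidine run that begins with a C at the first transcribed base.

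RPLP2 (chr11:809952-809981, plus strand): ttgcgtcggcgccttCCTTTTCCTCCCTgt
RPS23 (chr5:82278340-82278369, minus strand): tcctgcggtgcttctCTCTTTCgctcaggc
RPL38 (chr17:74203663-74203692, plus strand): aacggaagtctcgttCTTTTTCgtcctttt
RPL31 (chr2:101002274-101002303, plus strand): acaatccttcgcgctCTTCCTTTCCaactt
RPS18 (chr6:33272060-33272089, plus strand): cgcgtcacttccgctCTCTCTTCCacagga
RPS3 (chr11:75399503-75399532, plus strand): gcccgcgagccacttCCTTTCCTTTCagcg
RPL34 (chr4:108620561-108620590, plus strand): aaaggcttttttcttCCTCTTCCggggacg
RPL19 (chr17:39200268-39200297, plus strand): tgggctctccccttcgcagataatgggagg
RPL9 (chr4:39458908-39458937, minus strand): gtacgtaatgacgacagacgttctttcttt
RPS15 (chr19:1438381-1438410, plus strand): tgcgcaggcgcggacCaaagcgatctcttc

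A start was listed for 62 members, and where several were listed the one with the longest run was used. A C at the first base followed by C or T through base 5, read on the gene's own strand only, was found at 46 of these 62, or 74.2%, against 754 of 11100 other tested genes, or 6.79%. The share was 73.7% of the large subunit (28 of 38) and 75% of the small subunit (18 of 24). A member without such a run, such as RPL19 or RPL9, lacks these letters at the listed start, which says nothing of other starts of the gene.

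Each library held 16176655 to 18484112 counts, and levels are given in CPM, a gene's count relative to the library total on a fixed scale, with totals adjusted by TMM, a normalization that makes the bulk of genes comparable between libraries. TTK itself was at 35.6, 32.5 and 33.5 CPM in CAL-27 shTTK, against 46.4, 48.4 and 53.4 CPM in CAL-27 shControl, and at 26.9, 29.2 and 34.3 CPM in SCC-15 shTTK, against 67.5, 69.4 and 72.9 CPM in SCC-15 shControl. TTK thus fell by 0.54 in CAL-27 (adjusted p = 4.043e-10) and by 1.21 in SCC-15 (adjusted p = 1.919e-25) on the log2 scale. Of 8 epithelial markers, all were detected in every group, with summed levels of 4690 to 5730 CPM, while 7 leukocyte markers summed to 8.33 to 19.3 CPM and 7 fibroblast markers to 20.6 to 42.2 CPM. The endothelial markers summed to 72.9 to 75.1 CPM in CAL-27 shTTK, 102 to 110 CPM in CAL-27 shControl, 1.75 to 2.36 CPM in SCC-15 shTTK and 1.88 to 2.58 CPM in SCC-15 shControl. Their part in the results below was not tested. The SCC-15 libraries numbered 1 stood apart from the other SCC-15 libraries of their group: the mean chi-square per gene was 5.62 and 5.96 for pairs with shControl library 1 against 1.98 without it, and 3.07 and 3.78 for pairs with shTTK library 1 against 1.95 without it.

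Ribosomal protein mRNAs took a larger share of all counts in the shTTK libraries than in the shControl libraries of the same line. In CAL-27 the large subunit genes held 2.94% ± 0.046 of counts in shTTK and 2.80% ± 0.00299 in shControl (SD, n = 3 each), and the small subunit genes 1.96% ± 0.0424 in shTTK and 1.88% ± 0.00907 in shControl. In SCC-15 the large subunit genes held 3.79% ± 0.0376 in shTTK and 3.63% ± 0.0403 in shControl, and the small subunit genes 2.20% ± 0.0251 in shTTK and 2.07% ± 0.0207 in shControl. All 3 shTTK libraries lay above all 3 shControl libraries for each subunit in each line. Counting error is far smaller than these gaps, at most ± 0.009 percentage points (95% Wilson interval, covering counting error only). No p-value is given for these sums. In bulk RNA, a changed proportion of cells in some state and a changed amount of mRNA per cell cannot be told apart.

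The share of mitochondrially encoded transcripts, which belong to the same total, was 4.57% ± 0.105 in CAL-27 shTTK and 4.29% ± 0.0414 in CAL-27 shControl, and 2.47% ± 0.196 in SCC-15 shTTK and 3.27% ± 0.513 in SCC-15 shControl, where library 1 reached 3.86%. With these transcripts left out of the total, the gain of the large subunit was 0.161 percentage points in CAL-27 and 0.13 in SCC-15, and that of the small subunit 0.0827 in CAL-27 and 0.118 in SCC-15. The shTTK means thus stayed above the shControl means without them.

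The balance of the subunits moved little. The ratio of small to large subunit counts was 0.665 ± 0.00538 in CAL-27 shTTK and 0.673 ± 0.0026 in CAL-27 shControl, and the ranges of these groups met at 0.671. It was 0.582 ± 0.00126 in SCC-15 shTTK and 0.570 ± 0.00271 in SCC-15 shControl, where the groups did not overlap (0.581 to 0.583 in shTTK, 0.567 to 0.572 in shControl). The wider gap lay between the lines, with less small subunit mRNA per large subunit mRNA in SCC-15 than in CAL-27. Because the ratio sums counts without dividing by length, it compares groups and does not give the stoichiometry of the subunits.

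**Figure D1:**
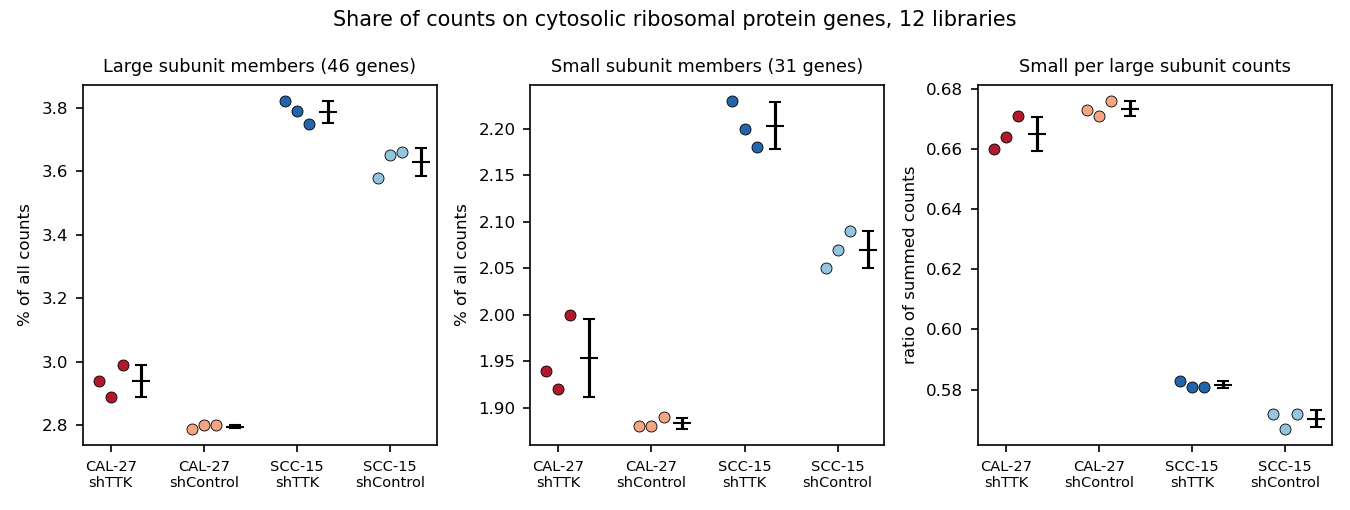
Percent of all counts on the 46 large and 31 small subunit genes and the ratio of small to large subunit counts, 1 point per library, with the mean and SD of each group of 3 beside the points; axes do not start at 0. Shares were higher in shTTK than in shControl in each line, and SCC-15 lay above CAL-27 for the shares and below it for the ratio.

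In CAL-27, TTK knockdown went with small rises of ribosomal protein mRNAs. Of the 77 genes, 22 rose and 2 fell at an adjusted p under 0.05, and the other 53 did not pass the test. Over all 16946 genes tested, 11.6% rose and 15.7% fell. The members' median log2 fold change was 0.05, beside -0.01 for all genes, and the changes ran from -0.17 to 0.31, with the middle 50% of genes between 0.00 and 0.09. The large subunit had 15 genes higher and 1 lower with a median of 0.06, and the small subunit 7 higher and 1 lower with a median of 0.04. The counts moved with the libraries used: without shControl library 3, 9 large subunit genes rose, and without shTTK library 3, 4 small subunit genes rose. Leaving out SCC-15 shTTK library 1, which is not part of this comparison, gave 11 small subunit genes higher. That fit repeated the filter, TMM and the shared estimate of the spread. In it the median change of all genes in CAL-27 was 0.0055, where it was -0.0102 with all libraries. Of the 24 calls, 13 held whichever of the 12 libraries was left out.

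RPL31, a protein at the rim of the peptide exit tunnel, was at 533, 519 and 554 CPM in CAL-27 shTTK, against 466, 459 and 464 CPM in CAL-27 shControl. RPL3, which lies beside the peptidyl transferase centre, was at 1400, 1440 and 1450 CPM in shTTK, against 1230, 1260 and 1220 CPM in shControl. RPS18, a protein of the head of the small subunit, was at 920, 910 and 975 CPM in shTTK, against 813, 839 and 878 CPM in shControl. For all 3 genes the lowest shTTK library lay above the highest shControl library. The log2 fold changes were 0.21 ± 0.031 for RPL31 (SE, adjusted p = 5.922e-08), 0.21 ± 0.028 for RPL3 (4.576e-09) and 0.15 ± 0.030 for RPS18 (6.11e-05).

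Among the other large rises in CAL-27 were RPS15A (0.26 ± 0.076, adjusted p = 0.0266), RPL29 (0.23 ± 0.062, adjusted p = 0.0203) and RPS20 (0.19 ± 0.058, adjusted p = 0.0352). RPS15A was at 161, 150 and 163 CPM in shTTK, against 134, 140 and 121 CPM in shControl. RPL29 was at 387, 364 and 388 CPM in shTTK, against 316, 360 and 296 CPM in shControl. RPS20 was at 633, 637 and 667 CPM in shTTK, against 623, 546 and 533 CPM in shControl. In each of these genes the groups did not overlap, and the shControl libraries were more widely spread than the shTTK libraries. The call was lost for RPS15A without shTTK library 1 or 3 or shControl library 1 (adjusted p up to 0.07), for RPL29 without shControl library 1 (0.0824), and for RPS20 without shTTK library 2 or 3 or shControl library 2 (up to 0.0922). RPL29 also missed the threshold without both SCC-15 libraries numbered 1 (0.0619). RPL31, RPL3 and RPS18 kept the call with each library left out. For RPS15A, 41.5% of the bases of its shortest principal transcript also lie in another gene's exons on the same strand, and the rule used to assign such reads is not given in the sources used here.

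The 2 members that fell in CAL-27 were RPS15 and RPLP2. RPS15, a small subunit protein that reaches toward the decoding centre, was at 540, 514 and 534 CPM in shTTK, against 612, 610 and 562 CPM in shControl, a log2 fold change of -0.17 ± 0.032 (adjusted p = 2.47e-05). RPLP2, an acidic protein of the P stalk that recruits translation factors, was at 271, 275 and 282 CPM in shTTK, against 308, 303 and 293 CPM in shControl, a log2 fold change of -0.13 ± 0.031 (adjusted p = 0.000887). All 3 shTTK libraries lay below all 3 shControl libraries for each gene.

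In SCC-15, 42 members rose, 7 fell and 28 did not pass the test, beside 13.4% of all genes tested that rose and 14.3% that fell. The median log2 fold change of the members was 0.10, beside 0.00 for all genes, and the changes ran from -0.39 to 0.68, with the middle 50% between 0.01 and 0.15. The large subunit had 24 genes higher and 5 lower with a median of 0.09, and the small subunit 18 higher and 2 lower with a median of 0.11. Without the libraries numbered 1 of both SCC-15 groups, 31 members rose and 8 fell, 18 of the large and 13 of the small subunit being higher, and the median was 0.08. Of the 49 calls, 38 held with each library left out in turn.

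RPS23 (GRCh38 chr5:82273358-82278577, minus strand), a small subunit protein at the decoding centre, had the largest change of all members in SCC-15. It was at 175, 184 and 211 CPM in shTTK, against 102, 120 and 135 CPM in shControl. The groups were apart, with a wide spread inside each. Its log2 fold change was 0.68 ± 0.106 (adjusted p = 0.00133), and it was the only member past 0.5 on this scale in either line's knockdown comparison. In CAL-27, RPS23 was at 109, 120 and 115 CPM in shTTK and 131, 119 and 118 CPM in shControl, with an adjusted p of 0.60.

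RPLP2 was at 642, 635 and 624 CPM in SCC-15 shTTK, against 487, 485 and 501 CPM in SCC-15 shControl, a log2 fold change of 0.37 ± 0.030 (adjusted p = 2.724e-17). The shTTK libraries were all higher and tightly grouped, the reverse of its order in CAL-27. RPL38, a small protein of the large subunit known in mice for its part in the translation of Hox mRNAs, was at 179, 205 and 215 CPM in shTTK, against 151, 147 and 165 CPM in shControl (log2 fold change 0.37 ± 0.095, adjusted p = 0.0194). RPS27, a zinc-binding small subunit protein, was at 532, 579 and 591 CPM in shTTK, against 438, 438 and 474 CPM in shControl (log2 fold change 0.33 ± 0.071, adjusted p = 0.00706). RPL37 and RPS21 completed the 6 largest rises, with log2 fold changes of 0.29 and 0.24. RPS23, RPL38, RPS27 and RPL37 were also among the members with the widest spread inside groups, with SDs of 0.133, 0.118, 0.091 and 0.093 on the log2 scale beside a median of 0.045 over the 77 genes. RPL38 lost its call without shTTK library 2 or 3 or shControl library 1 or 2 (adjusted p up to 0.0679), RPL37 without shTTK library 3 or shControl library 1 or 2 (up to 0.0578), and RPS21 without both libraries numbered 1 (0.0977). RPS23, RPLP2 and RPS27 kept theirs in each of these cases.

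The 7 members that fell in SCC-15 were RPL23, RPL19, RPS3, RPL9, RPLP1, RPL34 and RPS26. RPL23 (GRCh38 chr17:38847865-38853843, minus strand), a large subunit protein that also binds MDM2, was at 481, 463 and 458 CPM in shTTK, against 628, 599 and 614 CPM in shControl (log2 fold change -0.39 ± 0.032, adjusted p = 3.706e-17). RPL19, which helps bridge the subunits, was at 1050, 1060 and 1050 CPM in shTTK, against 1220, 1320 and 1310 CPM in shControl (-0.29 ± 0.029, adjusted p = 4.264e-13). RPS3, a small subunit protein at the mRNA entry channel, was at 1170, 1130 and 1120 CPM in shTTK, against 1330, 1360 and 1340 CPM in shControl (-0.24 ± 0.028, adjusted p = 7.37e-11). For each of these genes every shTTK library lay below every shControl library. RPL9 fell by 0.20, RPLP1 by 0.14, RPL34 by 0.13 and RPS26 by 0.11 on the log2 scale. RPL34 lost its call without shControl library 2 (adjusted p = 0.06), and RPS26 without shTTK library 2 or shControl library 1 (up to 0.0869).

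**Figure D2:**
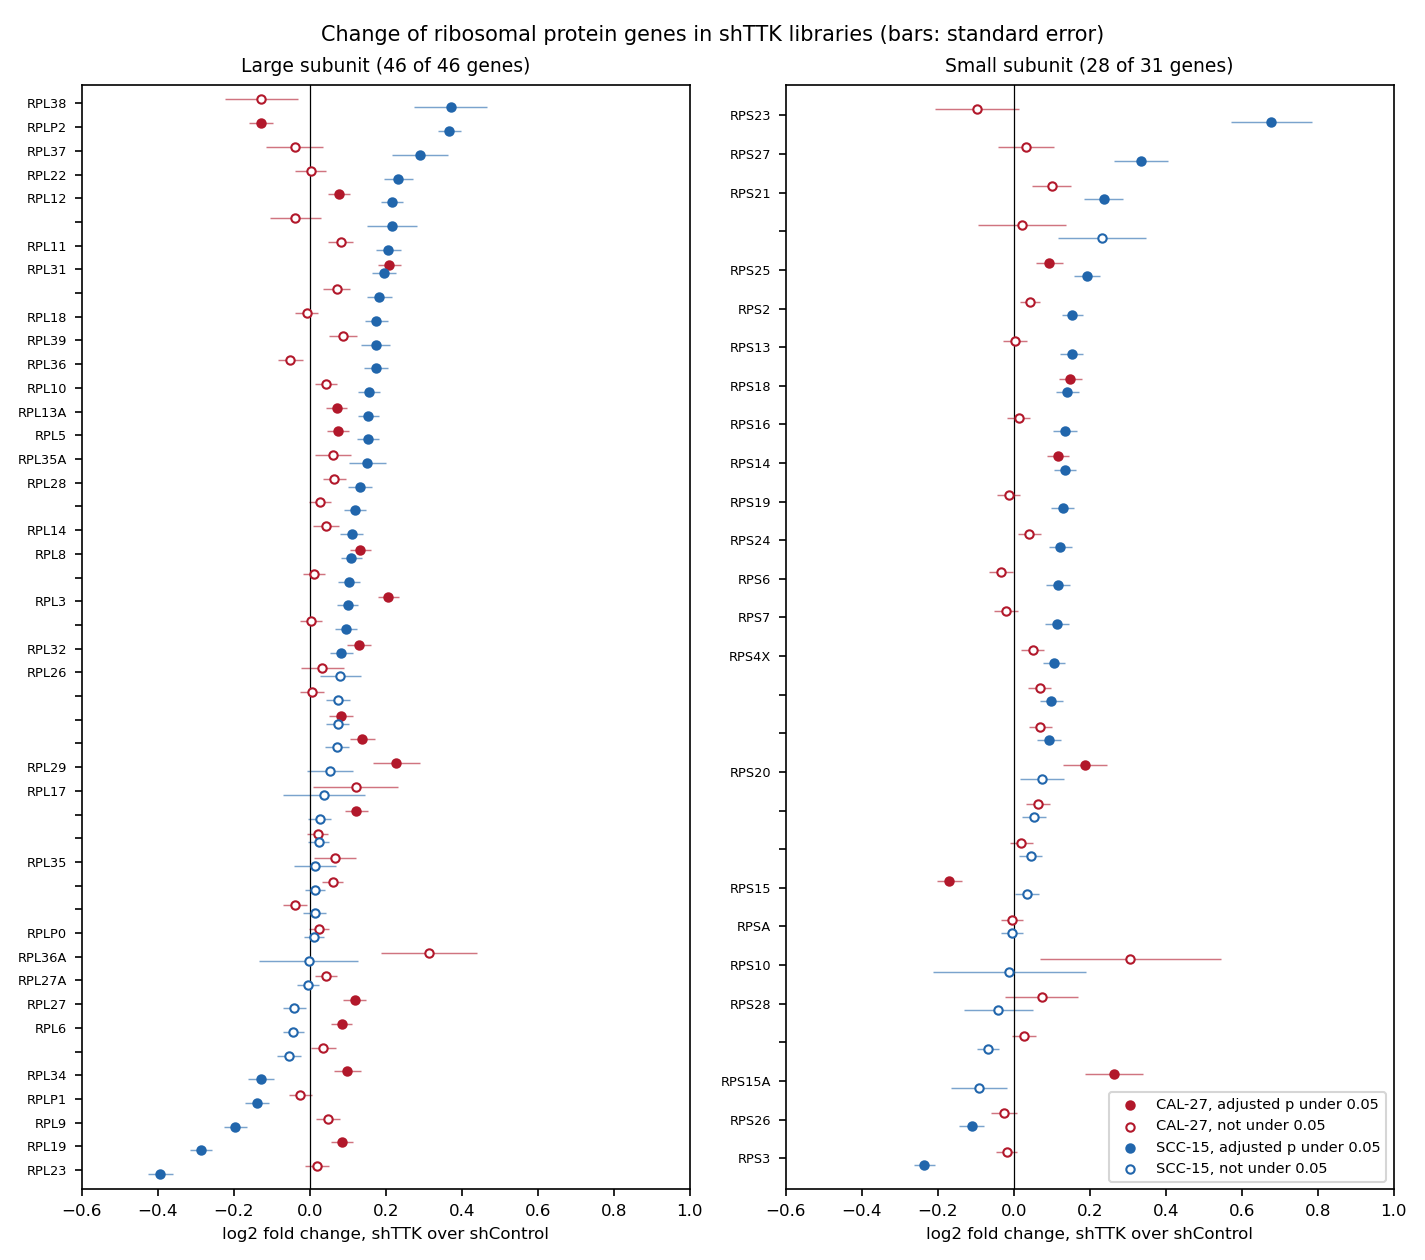
log2 fold change of shTTK over shControl for the 46 large and 28 of the 31 small subunit genes in CAL-27 and SCC-15, with standard errors and names for the genes described, ordered by the change in SCC-15; filled points have an adjusted p under 0.05. Most changes lie between -0.25 and 0.25, with RPS23 at 0.68 and RPL23 at -0.39 in SCC-15 at the ends.

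**Figure D3:**
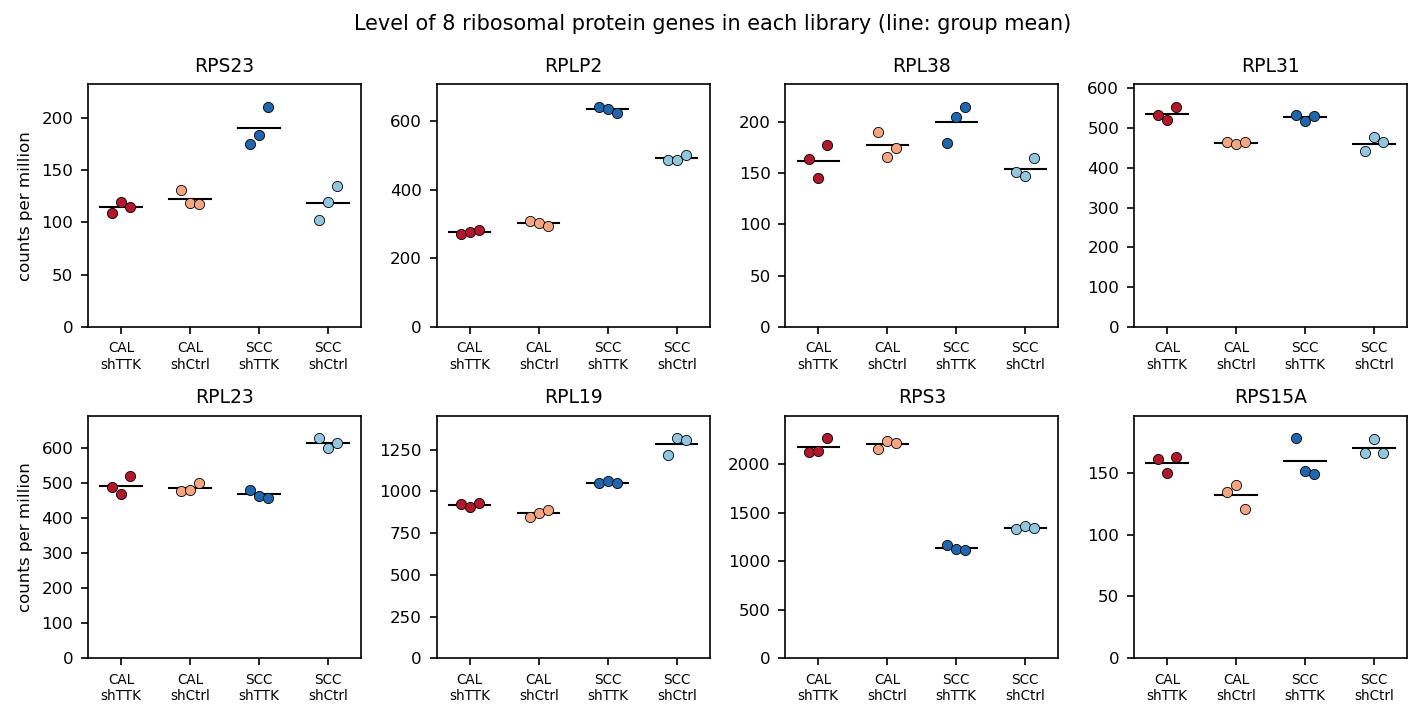
Level (CPM) of 8 members in each library, with the group mean as a line and axes from 0. RPS23, RPLP2 and RPL38 were higher in SCC-15 shTTK than in SCC-15 shControl, RPL23, RPL19 and RPS3 were lower there, RPL31 was higher in shTTK of both lines, and RPS15A was higher in shTTK of CAL-27.

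The knockdown comparisons of the 2 lines use separate controls. Of the members, 12 rose in both lines, 7 of the large and 5 of the small subunit, among them RPL3, RPL5, RPL8, RPL12, RPL13A, RPL31, RPL32, RPS14, RPS18 and RPS25. They make up 54.5% of the 22 that rose in CAL-27 and 28.6% of the 42 that rose in SCC-15. As a share of the 77 members this is 15.6%, beside 2.87% of all genes tested that rose in both lines (487 genes). Examples of the log2 fold changes are those of RPL31 (0.21 in CAL-27 and 0.20 in SCC-15), RPS18 (0.15 and 0.14), RPS14 (0.12 and 0.13) and RPL8 (0.13 and 0.11). Without both SCC-15 libraries numbered 1, 9 members rose in both lines, 8 of them among the 12, and RPL3, RPL8 and RPL32 were among those lost. With 1 of the 12 libraries left out, the CAL-27 calls of RPL5, RPL12 and RPL13A were lost in 5 fits each and that of RPS25 in 4, and the SCC-15 call of RPL32 in 3 and that of RPL3 in 1. By edgeR at an adjusted p under 0.05, 0 members fell in both lines, and the count was also 0 at an unadjusted p under 0.05, with DESeq2 and with limma-voom. Neither comparison was passed by 19 members, 11 of the large and 8 of the small subunit. The shares of all genes that fell in both lines or passed neither comparison were not counted, so these counts are given alone.

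RPL19, RPL34 and RPLP2 changed in opposite directions in the lines, and the share of all genes that did so was not counted. RPL19 and RPL34 rose in CAL-27, with log2 fold changes of 0.09 and 0.10, and fell in SCC-15. In CAL-27 RPL19 lost its call without shControl library 1 (adjusted p = 0.204) and RPL34 without shTTK library 1 or shControl library 1 or 3 (up to 0.198). RPLP2 fell in CAL-27 and rose in SCC-15. The difference between the changes, SCC-15 minus CAL-27, was -0.37 ± 0.041 for RPL19 (adjusted p = 1.42e-11), -0.23 ± 0.050 for RPL34 (0.00024) and 0.50 ± 0.043 for RPLP2 (7.88e-16).

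Tested directly, the change in SCC-15 was above that in CAL-27 for 16 members and below it for 10, beside 13.3% of all genes above and 12.1% below. Of the 46 large subunit genes 8 were above and 8 below, and of the 31 small subunit genes 8 were above and 2 below. RPS23 had the largest positive difference, 0.78 ± 0.153 (adjusted p = 0.0057), and RPL23 the largest negative one, -0.41 ± 0.045 (9.36e-12). Without SCC-15 shTTK library 2, 10 members were above, and without SCC-15 shTTK library 3, 6 were below. Of the 26 differences, 14 held with each library left out in turn, those of RPS23 and RPL23 among them.

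The 3 genes of the P stalk did not move together. Of these, RPLP0, its base, was at 1990, 1990 and 2070 CPM in CAL-27 shTTK against 1920, 1980 and 2050 CPM in CAL-27 shControl, and did not pass the test in either line. RPLP1, the acidic partner of RPLP2, was at 1020, 960 and 934 CPM in SCC-15 shTTK, against 1080, 1070 and 1060 CPM in SCC-15 shControl. In SCC-15 the 3 stalk genes thus gave 1 rise (RPLP2), 1 fall (RPLP1) and 1 gene that did not pass, and in CAL-27 only RPLP2 passed, as a fall. RPL5 and RPL11, which with 5S rRNA can bind and restrain MDM2, rose in SCC-15, with log2 fold changes of 0.15 and 0.21. In CAL-27 RPL5 rose, with a log2 fold change of 0.07, with an adjusted p of 0.0458, and RPL11, at 0.08, had an adjusted p of 0.0575. The call of RPL5 in CAL-27 was lost in 5 of the 12 fits with a library left out (adjusted p up to 0.175). RPL5 was at 1060, 1120 and 1120 CPM in SCC-15 shTTK, against 970, 982 and 1010 CPM in SCC-15 shControl. RPL11 was at 705, 732 and 693 CPM in SCC-15 shTTK, against 584, 620 and 641 CPM in SCC-15 shControl.

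A list of 9 members mutated in Diamond-Blackfan anaemia, a congenital failure of red cell production, was taken, and it may not hold every gene of the disease. Of these 9, RPL5 alone passed the test in CAL-27, as a rise, with the call lost in the 5 fits given above. In SCC-15, 6 rose (RPL5, RPL11, RPL35A, RPS7, RPS19 and RPS24) and RPS26 fell, while RPS10 did not pass. RPL35A lost its call in 5 of the 12 fits with a library left out (adjusted p up to 0.15) and without both SCC-15 libraries numbered 1 (0.325), RPS26 lost it in 2 fits as given above, and RPS19 lost it without both libraries numbered 1 (0.0624). RPS19, the gene most often mutated in that disease, was at 551, 524 and 508 CPM in SCC-15 shTTK, against 472, 482 and 494 CPM in SCC-15 shControl. Of 9 proteins around the exit tunnel, 3 rose in CAL-27 and 0 fell by edgeR, a count that was also 0 at an unadjusted p under 0.05 in edgeR and at an adjusted p under 0.05 with DESeq2 and with limma-voom. In SCC-15, 3 rose and 1 fell: RPL22 (0.23), RPL31 (0.20) and RPL39 (0.17) rose and RPL19 fell. Of 14 proteins of the head of the small subunit, 3 rose and 1 fell in CAL-27, and 6 rose and 1 fell in SCC-15. In the order anaemia genes, tunnel and head, 11.1%, 33.3% and 21.4% rose in CAL-27, beside 11.6% of all genes tested. In SCC-15 66.7%, 33.3% and 42.9% rose, beside 13.4% of all genes. The share that fell in each list was below that of all genes, which was 15.7% in CAL-27 and 14.3% in SCC-15. The median changes of these lists were 0.04, 0.09 and 0.05 in CAL-27 and 0.12, 0.07 and 0.08 in SCC-15, in the order anaemia genes, tunnel and head.

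Several members that changed in SCC-15 lay beside other genes with changes in the same direction. For each member the 20 nearest tested protein-coding genes that are not members, with a mean of at least 50 counts, were taken by distance between starts. RPL23 and RPL19, both on chromosome 17 and sharing some of these neighbours, had neighbours with median log2 fold changes of -0.29 and -0.24 in SCC-15, and 0.00 and 0.01 in CAL-27. The neighbours of RPL9 and RPL34, both on chromosome 4, had medians of -0.36 and -0.27 in SCC-15, and those of RPS3 on chromosome 11 had a median of -0.14. The neighbours of RPLP2, elsewhere on chromosome 11, had a median of 0.27 in SCC-15 and -0.13 in CAL-27.

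Over the 73 members with a mean of at least 1000 counts, Pearson's r between a member's change and its neighbours' median was 0.63 in SCC-15 and -0.09 in CAL-27 (Spearman's rho 0.52 and 0.01). Members close together share neighbours and all points come from the same libraries, so these values are a description. Without RPL23, RPL19 and RPLP2, r was 0.52 in SCC-15. RPS23 departed from this pattern, with a neighbours' median of 0.05 beside its own change of 0.68. It was not alone: other members that rose in SCC-15 also had neighbours' medians near 0. Among them were RPL37 (-0.01 beside its own 0.29), RPL12 (0.01 beside 0.22) and RPL31 (0.01 beside 0.20). By chromosome, the 390 other coding genes of chromosome 4 had a median of -0.25 in SCC-15 and -0.04 in CAL-27. The 3 members there had a median of -0.13 in SCC-15. The 12 members of chromosome 19 included 9 that rose in SCC-15 and had a median of 0.11, beside 0.08 for 715 other coding genes of that chromosome. The part that these regions play in the members' changes was not tested.

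**Figure D4:**
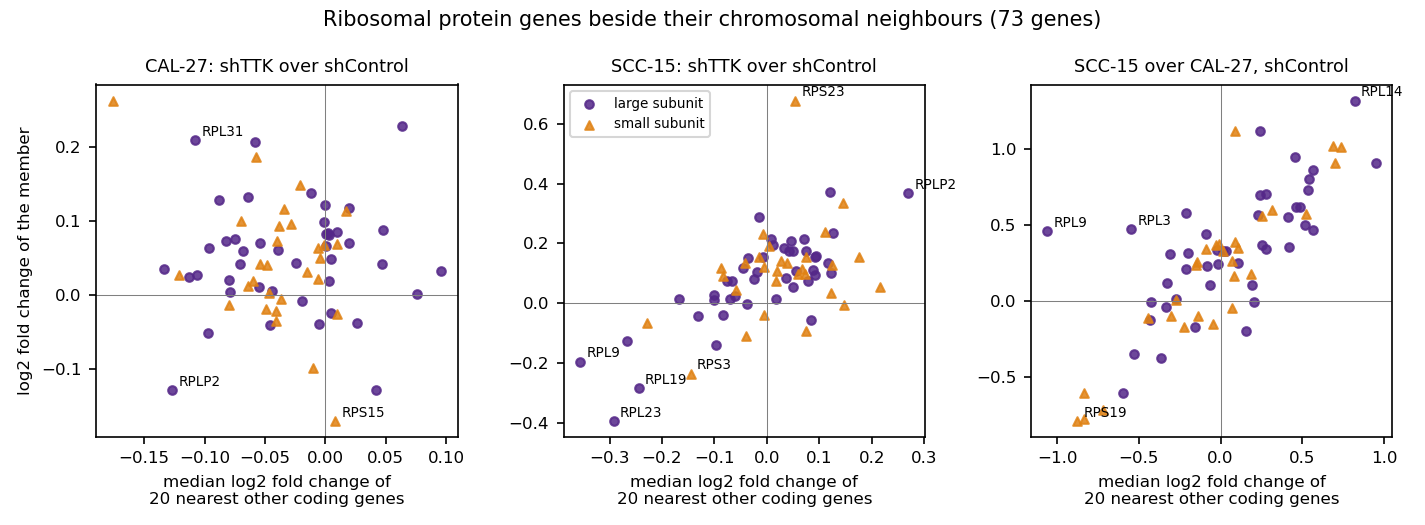
log2 fold change of each of 73 members against the median log2 fold change of its 20 nearest other coding genes, for the knockdown in CAL-27 and in SCC-15 and for SCC-15 shControl over CAL-27 shControl; scales differ between panels. Members followed their neighbours in SCC-15 (r = 0.63) and between the lines (r = 0.78) and not in CAL-27 (r = -0.09).

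Between the lines the differences reached 1.31 on the log2 scale, where the knockdown comparisons reached 0.68. In SCC-15 shControl 54 members were higher and 13 lower than in CAL-27 shControl, and 10 did not pass. Over all genes 37.8% were higher and 38.2% lower. This comparison shares its libraries with the knockdown comparisons. The median log2 fold change was 0.33 for the large subunit (34 higher, 5 lower) and 0.26 for the small subunit (20 higher, 8 lower), beside -0.01 for all genes. A change of at least 1 on the log2 scale was found for 5 members, all higher in SCC-15: RPL14, RPS28, RPL27A, RPS4X and RPSA. The share of all genes with a change of this size was not counted, so no excess is read from these members.

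RPL14 (GRCh38 chr3:40457292-40468587, plus strand), a large subunit protein, was at 515, 496 and 515 CPM in SCC-15 shControl, against 200, 202 and 211 CPM in CAL-27 shControl, a log2 fold change of 1.31 ± 0.033 (adjusted p = 7.2e-50). RPL27A was at 1270, 1310 and 1330 CPM in SCC-15 shControl, against 598, 597 and 613 CPM in CAL-27 shControl (1.11 ± 0.029). RPSA, which is also known as the laminin receptor precursor, was at 1430, 1440 and 1480 CPM in SCC-15 shControl, against 711, 725 and 725 CPM in CAL-27 shControl (1.01 ± 0.029). RPS28 was at 428, 415 and 447 CPM in SCC-15 shControl, against 191, 190 and 215 CPM in CAL-27 shControl (1.12), and RPS4X, the X-linked form of a small subunit protein, had a log2 fold change of 1.02. The groups were far apart for all these genes.

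The members lower in SCC-15 were led by small subunit genes. RPS19 was at 472, 482 and 494 CPM in SCC-15 shControl, against 829, 820 and 846 CPM in CAL-27 shControl (log2 fold change -0.79 ± 0.030, adjusted p = 4.38e-37). RPS16, RPS3 and RPS6, the last a substrate of the S6 kinases downstream of mTORC1, had log2 fold changes of -0.78, -0.72 and -0.60, and RPL39 and RPL28 of -0.60 and -0.37. Between the lines too, members followed their chromosomal neighbours, with r of 0.78 over the 73 members. The neighbours of RPS19 and RPS16 on chromosome 19 had medians of -0.88 and -0.84, those of RPS3 -0.72, those of RPS6 -0.84 and those of RPL14 on chromosome 3 0.82. Some members went the other way from their neighbours. Among them were RPL9, RPL3 and RPL6, at 0.46, 0.47 and 0.58 beside medians of -1.06, -0.55 and -0.21.

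Levels between genes were compared per length, as TPM, the counts per kilobase of the median basic coding transcript scaled to the same total in each library over genes with a length. On this scale the 77 genes together held 102000 to 131000 TPM in a library, with a median of 1280 TPM per gene. The highest were RPS2 (4380 TPM over the 12 libraries), RPLP0 (4030), RPLP1 (3860), RPL35 (3550) and RPL8 (3140). The choice of transcript length matters: with the longest and the shortest basic transcript RPLP1 would be at 1440 and 6710 TPM, so the order among the highest genes is not resolved.

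Among the lowest members were RPS10 (7.53 TPM), RPL36A (20.6), RPL17 (27.5) and RPL26 (163). In each of these 4, 65.3% to 91.0% of the bases of the shortest principal transcript also lie in exons of another gene on the same strand, such as the read-through gene RPS10-NUDT3. RPS10 was at 2.03, 2.72 and 2.46 CPM in CAL-27 shTTK, against 1.77, 2.25 and 1.80 CPM in CAL-27 shControl, and at 4.02, 3.80 and 3.46 CPM in SCC-15 shTTK, against 3.09, 3.84 and 4.46 CPM in SCC-15 shControl. These groups overlap, and none of the 4 genes passed the test in either knockdown comparison. How reads shared between overlapping genes were assigned is not given in the sources used here, and its part in these low values was not tested.

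**Figure D5:**
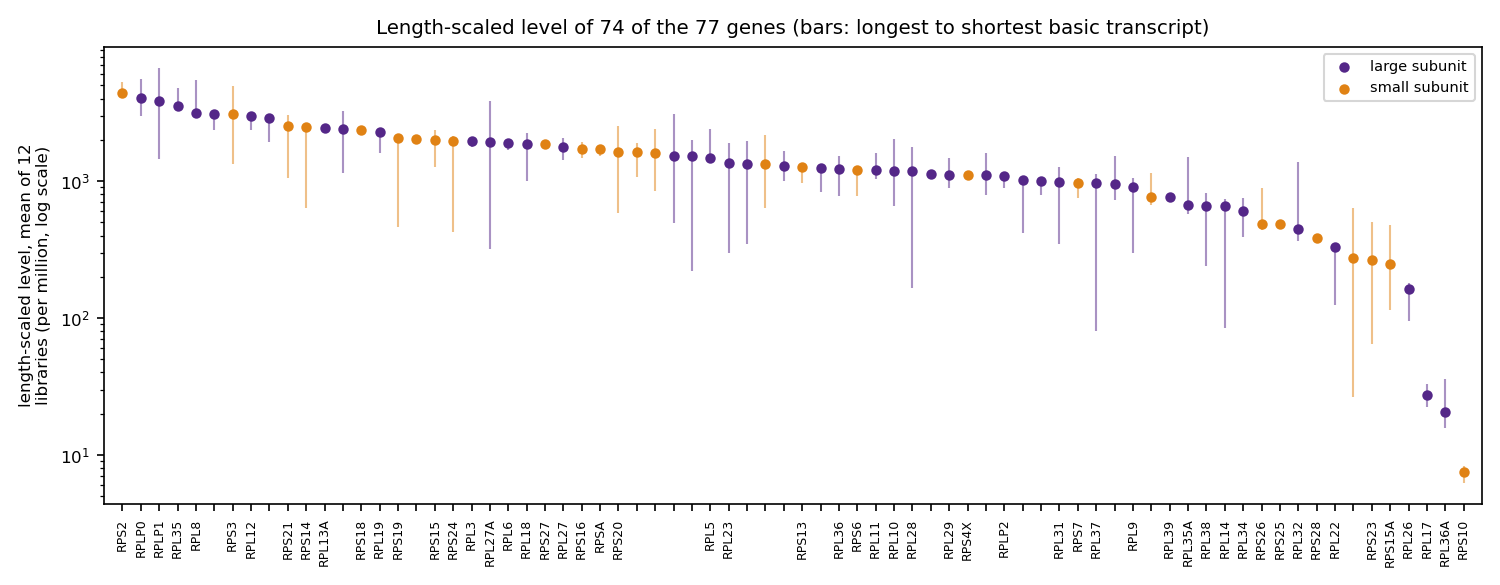
Length-scaled level of 74 of the 77 genes as the mean of 12 libraries on a log axis, with bars from the longest to the shortest basic transcript of each gene and names for the genes described. Most genes lie near the median of 1280 TPM, and RPL17, RPL36A and RPS10 lie far below at 27.5 to 7.53 TPM.

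Pseudogenes add a second limit, since ribosomal protein genes have many copies. The table held 1132 rows named as ribosomal protein pseudogenes, with 0.215% to 0.254% of the counts of a library. RPS2P5 (mean 8186 counts), RPL9P9 (5252) and RPS2P46 (3275) were the largest, and relative to the counts of the gene itself the pseudogenes came to 73.2% for RPL9, 61.9% for RPS10, 54.8% for RPS28, 44.1% for RPL39 and 26.9% for RPS2. The values of these 5 genes, RPS28 and RPL39 between the lines included, are uncertain to that extent. Adding the pseudogenes to their parents left the gain of the large subunit at 0.148 percentage points in CAL-27 and 0.158 in SCC-15, and that of the small subunit at 0.0695 in CAL-27 and 0.141 in SCC-15.

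Ribosomal protein genes outside the naming rule behaved in part differently. FAU, which encodes a ribosomal protein fused to a ubiquitin-like protein, rose in SCC-15 with a log2 fold change of 0.18 and did not pass the test in CAL-27. FAU was at 275, 264 and 251 CPM in SCC-15 shTTK, against 231, 238 and 230 CPM in SCC-15 shControl. Between the control groups FAU was lower in SCC-15 than in CAL-27, with a log2 fold change of -1.13. Of 8 paralogs, 6 were tested. In CAL-27 RPL22L1 rose and RPL7L1, RPL26L1 and RPL39L fell, and in SCC-15 RPL22L1 alone passed, as a rise. RPL22L1, the paralog of RPL22, was at 36.8, 34.9 and 38.0 CPM in CAL-27 shTTK, against 29.2, 31.4 and 31.1 CPM in CAL-27 shControl. RPL39L, described in mice as a testis-enriched form of RPL39, was at 23.8, 22.5 and 28.4 CPM in CAL-27 shTTK, against 31.1, 30.2 and 27.4 CPM in CAL-27 shControl, and these groups overlap. RPL36AL and RPS27L did not pass in either line, and RPL3L and RPL10L were too low to test.

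Other mRNAs known to carry a TOP tract rose more often than they fell in SCC-15 and moved in both directions in CAL-27. Of 20 tested, 9 rose and 2 fell in SCC-15 with a median of 0.06, and 4 rose and 7 fell in CAL-27 with a median of 0.02. In SCC-15 this is 45% and 10%, beside 13.4% of all genes that rose and 14.3% that fell. In CAL-27 it is 20% and 35%, beside 11.6% and 15.7% of all genes. The falls in CAL-27 include a gene below 1 CPM in all libraries of that line. RACK1, a scaffold protein of the small subunit, was at 1230, 1270 and 1310 CPM in CAL-27 shTTK, against 1140, 1200 and 1200 CPM in CAL-27 shControl, and at 1590, 1540 and 1560 CPM in SCC-15 shTTK, against 1350, 1430 and 1400 CPM in SCC-15 shControl. It rose in both lines, as did the elongation factor EEF2, with log2 fold changes of 0.10 and 0.13. PABPC1, the poly(A)-binding protein, fell by 0.13 in CAL-27 and rose in SCC-15 with a log2 fold change of 0.18. HSPA8, a chaperone, fell by 0.23 in CAL-27, and EIF3F and NAP1L1 fell in both lines. Among the 62 members with a listed start, the 46 with the pyrimidine run had a median change of 0.13 in SCC-15 and 0.04 in CAL-27. Those without it had 0.04 in SCC-15 and 0.07 in CAL-27. Among the other tested genes, the 754 with the run had a median of 0.00 in SCC-15 and in CAL-27. Other tested genes without it had 0.00 in SCC-15 and -0.02 in CAL-27. Of the members that fell in SCC-15, RPL19, RPL9 and RPS26 lack the run at the listed start. RPS3, RPLP1 and RPL34 have it, and RPL23 has no listed start. This split rests on the listed start alone and does not cover other starts of a gene. A part of the run in these changes was not tested.

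The mRNAs of proteins that act on TOP mRNAs fell more often than they rose. Of 19 genes of mTORC1 and TOP regulators, 8 fell and 0 rose in CAL-27, with a median of -0.11. The rises there were also 0 at an unadjusted p under 0.05, with DESeq2 and with limma-voom. In SCC-15 4 rose and 6 fell, with a median of -0.05. The share that fell in CAL-27 was 42.1%, beside 15.7% of all genes. In SCC-15 21.1% rose and 31.6% fell, beside 13.4% and 14.3% of all genes. RPTOR, the scaffold of mTORC1, was at 66.5, 65.1 and 69.8 CPM in CAL-27 shTTK, against 85.7, 87.8 and 83.3 CPM in CAL-27 shControl, and at 59.4, 56.0 and 54.2 CPM in SCC-15 shTTK, against 84.2, 83.2 and 84.6 CPM in SCC-15 shControl. It fell in both lines, by 0.35 and 0.57 on the log2 scale. MTOR itself fell by 0.18 in CAL-27 and rose in SCC-15 with a log2 fold change of 0.15, and EIF4E, the cap-binding protein, fell by 0.69 in SCC-15. LARP1 fell by 0.11 in CAL-27 and had an adjusted p of 0.337 in SCC-15.

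Ribosome assembly factors fell more often than they rose in CAL-27 and rose more often than they fell in SCC-15. Of 50 tested, 1 rose and 19 fell in CAL-27 with a median of -0.11, and 16 rose and 4 fell in SCC-15 with a median of 0.08. In CAL-27 this is 2% and 38%, beside 11.6% of all genes that rose and 15.7% that fell. In SCC-15 it is 32% and 8%, beside 13.4% and 14.3% of all genes. Tested directly, the change in SCC-15 was above that in CAL-27 for 24 of the 50 and below it for 0, or for 1 at an unadjusted p under 0.05 and for 0 with DESeq2 and with limma-voom. Over all genes 13.3% were above and 12.1% below. EIF6, which keeps the large subunit from joining too early, was at 178, 180 and 186 CPM in CAL-27 shTTK, against 214, 224 and 214 CPM in CAL-27 shControl, and at 254, 240 and 247 CPM in SCC-15 shTTK, against 194, 212 and 207 CPM in SCC-15 shControl. NCL, or nucleolin, fell by 0.21 in CAL-27 and rose in SCC-15 with a log2 fold change of 0.08. UTP20, a factor of small subunit rRNA processing, fell in both lines, by 0.44 and 0.39.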

How the data were processed

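Poly(A)-selected, strand-marked RNA libraries of 2 cell lines were sequenced as paired 150-base reads, per the labels' protocols. Per the submitters' processing notes, the tools were featureCounts 2.0.1, STAR 2.7.7a and Trim Galore 0.6.6, with hg38 as the build. The gene annotation, strand option and handling of multi-gene reads: not given in the sources used here. The authors deposited raw counts per gene symbol. All 12 columns were matched to samples by name. Totals were 16176655 to 18484112 counts.

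Counts were fitted with edgeR 4.0.16 (R 4.3.3) over all 12 libraries: filterByExpr, which left 16946 genes, TMM, 4 group means and the quasi-likelihood test, with Benjamini-Hochberg adjustment over all genes and calls at an adjusted p under 0.05. Alternatives used DESeq2 1.42.0 and limma 3.58.1 (limma-voom), whose counts are at an adjusted p under 0.05. The fit was tested on simulated data. Each standard error was taken as the absolute log2 change over the root of the quasi-likelihood F. Positions and lengths came from GENCODE 29 on GRCh38, and all 77 members matched.

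Members and the 16 gene lists were chosen with earlier results of these data known. In these lists 3 of 193 entries were not matched. Genes named are those with the largest called changes per comparison and direction, the highest and lowest levels, the P stalk, 5S and anaemia lists, and up to 3 per direction and line of the other lists. The neighbour comparison was added after seeing the data. The labels do not say that replicate numbers pair libraries, and the main fit did not pair them. Some single genes are counted in the totals and not reported here.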

Additional observations from a re-analysis of the deposited data

Results flagged for a closer look

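For 26 members the change in SCC-15 differed from that in CAL-27 in a direct test of the difference (edgeR, adjusted p under 0.05 over all genes). The SCC-15 change was above for 20.8% of the members and below for 13.0%, beside 13.3% and 12.1% of all genes. The values below are SCC-15 minus CAL-27 differences of the log2 fold change of shTTK over shControl. No test for a single outlying value was made within groups of 3 libraries. Among large subunit genes the difference was 0.50 for RPLP2, 0.50 for RPL38, 0.23 for RPL22, 0.22 for RPL36, 0.18 for RPL18, 0.14 for RPL12, 0.12 for RPL11 and 0.11 for RPL10. It was -0.41 for RPL23, -0.37 for RPL19, -0.24 for RPL9, -0.23 for RPL34, -0.16 for RPL27, -0.13 for RPL6, -0.12 for RPLP1 and -0.11 for RPL3. Among small subunit genes it was 0.78 for RPS23, 0.20 for RPS15, 0.15 for RPS6, 0.15 for RPS13, 0.14 for RPS19, 0.13 for RPS7, 0.12 for RPS16 and 0.11 for RPS2, and -0.36 for RPS15A and -0.22 for RPS3. With each of the 12 libraries left out in turn, 12 of these differences lost the call at least once. The call was lost in 9 of the 12 fits for RPL10 (adjusted p up to 0.134), in 8 for RPS16 (0.183), in 7 for RPLP1 (0.292), RPL11 (0.205) and RPL38 (0.0715), in 6 for RPL3 (0.112) and RPS15A (0.0682), in 5 for RPS2 (0.14) and RPS7 (0.114), and in 1 for RPS19 (0.0746), RPL6 (0.0699) and RPS6 (0.0533).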

How the results depend on the processing

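The members' counts of rises and falls stayed within 1.5 times the values reported under RLE size factors, TMM computed without ribosomal protein genes, DESeq2, limma-voom, no count filter, a filter at 1 CPM and each line fitted alone, with 22 to 31 rises in CAL-27 and 42 to 45 in SCC-15. With 1 library left out, 16 to 32 members rose in CAL-27, of which 9 to 21 were large and 4 to 11 small subunit genes; 35 to 45 rose in SCC-15. The difference between the lines then gave 10 to 17 members above and 6 to 13 below, and SCC-15 against CAL-27 controls gave 54 higher. Same-numbered libraries of a line were not correlated in their deviations over all genes (r -0.02 to 0.034). This cannot exclude a pairing that touches part of the genes, and the SCC-15 libraries numbered 1 stood apart in both groups. With a replicate block in the fit there were 20 rises and 3 falls in CAL-27, and 43 and 7 in SCC-15. The block gave 21 and 9 for the difference, and 51 and 15 between the lines. For the 49 members named, taken singly in the 2 knockdown comparisons over these alternatives, 1953 values kept their side of the threshold, 51 lost and 54 gained a call, and none reversed. With 40 neighbours in place of 20, chosen after seeing the data, r was 0.62 in SCC-15, 0.83 between the lines and 0.13 in CAL-27, where it was -0.09; the cause was not tested.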

Other observations

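Of 13 mitochondrially encoded genes, 2 rose and 1 fell in CAL-27 and 1 rose and 5 fell in SCC-15, with median log2 fold changes of 0.04 and -0.25. In CAL-27 this is 15.4% and 7.69%, beside 11.6% of all genes that rose and 15.7% that fell. In SCC-15 it is 7.69% and 38.5%, beside 13.4% and 14.3% of all genes. MT-CO2, a subunit of cytochrome oxidase, had log2 fold changes of 0.18 in CAL-27 and -0.41 in SCC-15. Of 12 tested genes of RNA polymerase I and its factors, which transcribe ribosomal RNA, 1 fell in CAL-27 (UBTF, by 0.24) and 0 rose (1 at an unadjusted p under 0.05, 0 with DESeq2 and with limma-voom), and 2 rose and 1 fell in SCC-15 (POLR1D and TAF1B higher, RRN3 lower). The share that fell in CAL-27 was 8.33%, beside 15.7% of all genes. In SCC-15 16.7% rose and 8.33% fell, beside 13.4% and 14.3% of all genes. Between the control groups, 42 of the 50 assembly factors and 19 of the 20 other TOP mRNAs were higher in SCC-15 than in CAL-27. Lower were 6 assembly factors, and 1 other TOP mRNA did not pass the test. Over all genes 37.8% were higher and 38.2% lower.

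Among epithelial markers 4 of 8 rose and 4 fell in CAL-27, and 4 rose and 2 fell in SCC-15. Over all genes 11.6% rose and 15.7% fell in CAL-27, and 13.4% rose and 14.3% fell in SCC-15. KRT5 averaged 1920 CPM in CAL-27 shTTK and 886 CPM in CAL-27 shControl. This marker was 1 of the 4 that rose in CAL-27 and 1 of the 2 that fell in SCC-15. Of 4 tested fibroblast markers 2 rose in CAL-27 and 0 passed in SCC-15, of 2 tested leukocyte markers 1 rose and 1 fell in CAL-27 and 0 passed in SCC-15, and of 3 tested endothelial markers 2 fell in CAL-27 and 0 passed in SCC-15. These 3 counts of 0 in SCC-15 were also 0 at an unadjusted p under 0.05, with DESeq2 and with limma-voom. CDH5 made up most of the endothelial sum, at 71.5 CPM in CAL-27 shTTK and 104 CPM in CAL-27 shControl, while KDR had 0 counts in all libraries.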
